A study of Schizosaccharomyces pombe with 9 samples.

Results

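The mitochondrial positions of a PAR-CLIP experiment in the fission yeast Schizosaccharomyces pombe are described here. They are all called T-to-C positions that the deposited tables place neither on chromosomes I, II and III nor on the contig AB325691, which leaves the mitochondrial molecule, named MT in the tables. Crosslinked replicate 1 had 99 such positions among its 6661, replicate 2 had 82 among 4824, and the library made without crosslinking had 8 among 135. Over the 3 libraries they came to 140 distinct positions of 11250.

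The study recovered RNA with Clr3, a histone deacetylase that acts in the nucleus, and asked in its title about the part of RNA in transcriptional interference. In this PAR-CLIP, cells take up the uracil analogue 4-thiouracil and build it into RNA. Long-wave ultraviolet light links the analogue to nearby protein, and reverse transcription reads the linked base as C. A converted read thus reports a T in the RNA. The 6 RNA-seq samples of the series (3 wild type and 3 seb1-1) were not analysed here.

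All 3 libraries came from 1 genotype, of mating type h+. Its alleles were ura4-delta18 and leu1-32 together with ade6-M216, the ura4+ insertion imr1R(NcoI)::ura4+, and the tagged clr3-3HA-TAP::kan MX. The cells grew at 30 °C with 10 mg/l uracil, 4% glucose and 100 µM 4-thiouracil, and received a further 900 µM for 4 h. The protocol gives irradiation at 365 nm with 12 J/cm2, recovery on IgG beads and trimming with RNase T1, and this text is the same for the control. That it is a control is known from the sample title and the design text of the series. The labels do not state that the 2 crosslinked libraries came from separate cultures, so their SD may be technical. No untagged strain was among the PAR-CLIP samples, so RNA held by Clr3 and RNA that came down with other material on the beads cannot be told apart.

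The mitochondrion keeps a small circular genome with its own ribosomal RNAs, a set of tRNAs, the RNA of RNase P and a few mRNAs for subunits of the respiratory chain and ATP synthase. In fission yeast the long primary transcripts are cut at tRNAs, which lie between the other genes, and the pieces become mature rRNAs, mRNAs and tRNAs. A tRNA folds into an acceptor stem and 3 arms: the D arm, named after the modified base dihydrouridine, the anticodon arm and the T arm, with a variable loop between the last pair.

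The sequences below show where the called T bases sit in the 10 tRNA genes on which the results turn, chosen for their share of conversions or for a call in the control. Each is the RefSeq gene (build ASM294v3, plus strand), 5′ to 3′, and capitals mark every T called in at least 1 crosslinked library.
trnD(guc), MT:14240-14310: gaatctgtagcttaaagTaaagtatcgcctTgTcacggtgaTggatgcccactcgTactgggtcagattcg
trnG(ucc), MT:14316-14387: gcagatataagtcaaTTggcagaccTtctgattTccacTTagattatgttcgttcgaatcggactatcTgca
trnQ(uug), MT:15749-15821: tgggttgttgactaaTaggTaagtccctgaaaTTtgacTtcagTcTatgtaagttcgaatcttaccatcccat
trnN(guu), MT:3061-3131: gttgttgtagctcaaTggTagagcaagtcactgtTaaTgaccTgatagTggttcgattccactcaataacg
trnE(uuc), MT:18406-18478: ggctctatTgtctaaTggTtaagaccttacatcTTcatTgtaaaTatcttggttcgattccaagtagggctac
trnP(ugg), MT:15663-15737: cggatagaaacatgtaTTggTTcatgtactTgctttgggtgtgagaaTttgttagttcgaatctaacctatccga
trnI(gau), MT:16664-16736: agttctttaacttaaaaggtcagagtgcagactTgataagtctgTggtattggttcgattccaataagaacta
trnV(uac), MT:17168-17240: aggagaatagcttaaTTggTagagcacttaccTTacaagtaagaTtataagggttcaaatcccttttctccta
trnW(cca), MT:14494-14565: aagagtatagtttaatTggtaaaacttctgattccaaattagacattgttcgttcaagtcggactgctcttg
trnA(ugc), MT:18059-18131: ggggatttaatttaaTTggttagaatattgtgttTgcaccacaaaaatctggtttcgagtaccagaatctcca

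The next set shows the stop codon and the 27 bases after it for the 5 mRNAs with a called T there (RefSeq, ASM294v3, plus strand, 5′ to 3′). Capitals again mark the called T bases, and a run of C follows each of them, directly or after 1 more T.
cox3, MT:9768-9797: taaggcttacttcaattttTcccccctttt
cob, MT:13862-13891: taatctcTTccccctttacactatataaaa
atp6, MT:15529-15558: taattttcTccccctatttttatggtgatt
atp9, MT:18030-18059: taatTTccccctttaaaaaagagaatactg
cox2, MT:19307-19336: taaccTcccccctaaagtgtttattaaatg

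The tables use build ASM294v2, whereas the mitochondrial sequence at hand was that of ASM294v3, with 19433 nt. Read directly, 52 of the 140 positions fell on a T. The shift was then raised each time a position missed a T, so that all 140 fall on a T by construction. This gave 3 blocks, with no shift (positions 68 to 2122), a shift of 1 nt (2526 to 4174) and a shift of 2 nt (4895 to 19310). The match rests on the small number of blocks and on the shift within each. In each block this was the single shift of 19433 tried that placed every position on a T. Gene names and nucleotide numbers within genes below rest on this match, which was made after the positions were seen. Positions are printed in the authors' numbering, and only the sequences above carry ASM294v3 coordinates.

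Every mitochondrial call was on the plus strand, the strand that carries all annotated genes named here: 99 of 99, 82 of 82 and 8 of 8. Nuclear calls were divided between the strands, with 48.5% and 48.1% on the plus strand in the crosslinked replicates and 55.9% in the control.

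The mitochondrial share of the called positions was small and that of the conversions larger. In the crosslinked replicates the positions were 1.49% (Wilson 95% interval 1.22 to 1.81) and 1.70% (1.37 to 2.10) of all calls, a mean of 1.59% ± 0.151 (SD, n = 2). Their conversions were 807 of 19348 (4.17%, 3.90 to 4.46) and 462 of 11134 (4.15%, 3.79 to 4.54), a mean of 4.16% ± 0.0152 (SD, n = 2). The reads at them were 27189 of 613498 (4.43%) and 10999 of 273082 (4.03%), a mean of 4.23% ± 0.286 (SD, n = 2).

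In the control the share of positions was higher than in both crosslinked libraries and the share of reads lower. The control held 8 of 135 positions (5.93%, 3.03 to 11.3), 34 of 919 conversions (3.70%, 2.66 to 5.13) and 445 of 15545 reads (2.86%, 2.61 to 3.14). The interval of its conversion share covered both crosslinked values. Among positions with at least 2 conversions, which include every control call, the mitochondrial share was 3.04% (2.50 to 3.68) and 4.51% (3.63 to 5.59) in the crosslinked replicates, and the control interval reached from just below the first value past the second. With 2 libraries against 1 no test across libraries was made, since an exact permutation p cannot fall below 1/3. The tables list called positions only, so total depth is unknown, a position missing from a table is not a count of 0, and intervals cover counting error only. Reads were summed over positions, so a read over several called T bases counts at each of them. The intervals of these shares are therefore too narrow even for counting error. The abundance of an RNA on the beads and its rate of crosslinking cannot be told apart in the number of covering reads.

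Mitochondrial calls rested on more reads than the typical nuclear call, though not on more than the median call in nuclear tRNA genes, given below. Calls of 1 converted read among 3 made up 51.8% and 65.1% of nuclear positions in the crosslinked replicates. On the mitochondrial molecule there were 0 such calls in replicate 1 and 4 in replicate 2, at 14714, 15896 and 15901 outside annotated genes and at 16976 in atp8, which encodes a small ATP synthase subunit. The median of covering reads was 173, 82 and 40 for mitochondrial positions in the crosslinked replicates and the control, against 3, 3 and 36 for nuclear positions. The median share of converted reads was 2.78%, 4.49% and 9.28%, with nuclear medians of 33.3%, 33.3% and 7.14%. Among nuclear positions with at least 2 conversions the crosslinked medians were 4.17% and 4.62%, so the distance between the compartments lay mostly in the calls with 1 conversion. With that filter the crosslinked medians of covering reads were 53 and 48 for nuclear positions and 173 and 96 for mitochondrial ones.

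The tRNA genes held most of the mitochondrial signal. Of the 140 positions 70 fell in tRNA genes, which contain 9.01% of the T bases on the plus strand. These positions carried 604 of 807 conversions in crosslinked replicate 1 (74.8%), 311 of 462 in replicate 2 (67.3%) and all 34 in the control, a crosslinked mean of 71.1% ± 5.32 (SD, n = 2). They carried 63.5% and 63.8% of the reads at called mitochondrial positions. Calls touched 20 of the 25 tRNA genes, 19 in replicate 1, 15 in replicate 2 and 14 in both. The share of genes with a call, 80%, was no higher than the 81.8% among the 11 other annotated genes. The genes without a call were trnM(cau)e, trnM(cau)f, trnF(gaa), trnY(gua) and trnI(cau).

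**Figure D1:**
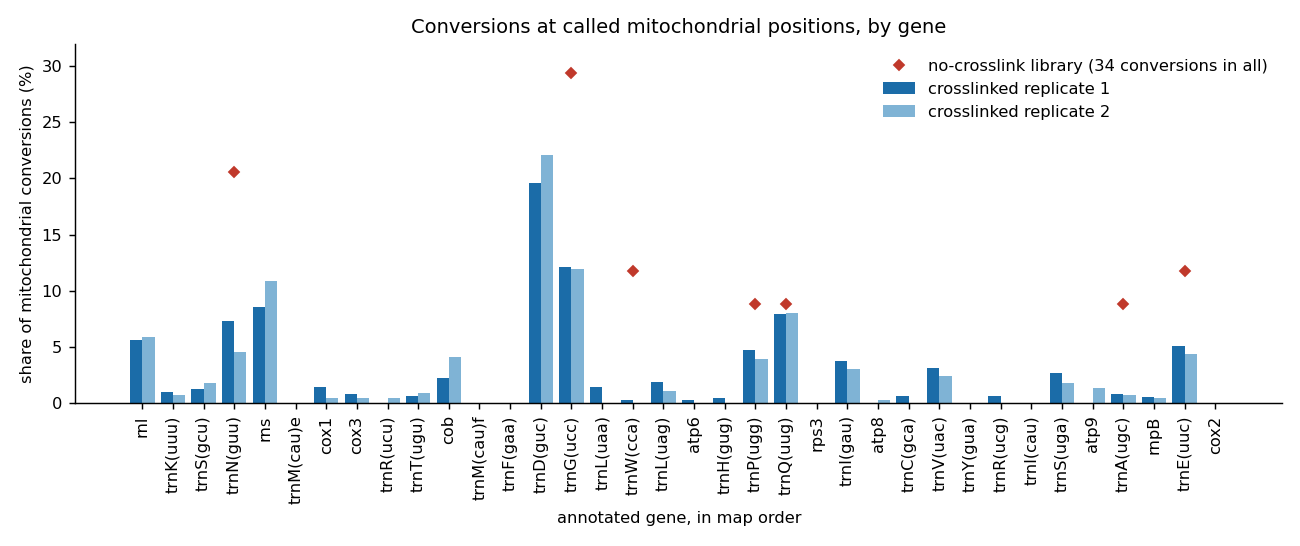
Share of mitochondrial conversions (%, linear axis) in each annotated gene, in map order, with bars for the 2 crosslinked replicates and diamonds for the library without crosslinking. The bars peak at trnD(guc), with 19.6% and 22.1%, and the diamonds appear in 7 tRNA genes alone.

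The aspartate tRNA trnD(guc) held the largest share, 158 conversions in crosslinked replicate 1 (19.6%) and 102 in replicate 2 (22.1%). Position 14279, nucleotide 42 of the gene, was converted in 138 of 891 reads in replicate 1 (15.5%, Wilson 95% interval 13.3 to 18.0), and replicate 2 had 77 of 425 (18.1%, 14.7 to 22.1). It was not listed in the control, where no call fell in trnD(guc). That T alone gave most of the conversions of the gene, and its intervals in the 2 replicates overlapped.

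The other calls in trnD(guc) had low shares. Position 14270, in the anticodon, was converted in 12 of 815 reads and 10 of 386. Position 14255, in the D loop, was converted in 8 of 290 reads and 6 of 118. Positions 14268 and 14293 were called in replicate 2 alone, with 4 of 246 and 5 of 323.

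The glycine tRNA trnG(ucc) came next, with 98 conversions (12.1%) and 55 (11.9%) spread over 7 positions. Position 14352, nucleotide 39, was converted in 34 of 952 reads (3.57%) and 18 of 407 (4.42%). Its neighbour 14353 was converted in 14 of 950 reads (1.47%) and 11 of 411 (2.68%). Position 14382 near the 3′ end, 35 nt after the first anticodon base, was converted in 24 of 546 reads (4.40%) and 6 of 237 (2.53%). In contrast to trnD(guc), no single T of trnG(ucc) reached a share of 5% in a crosslinked library. The remaining shared calls were 14347 at the first anticodon base, with 12 of 929 and 7 of 400, 14329 with 6 of 480 and 4 of 222, and 14330, taken up with the control below.

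The glutamine tRNA trnQ(uug) carried 7.93% and 8.01% of mitochondrial conversions at low shares per position. Position 15785 was converted in 22 of 884 reads (2.49%) and 15 of 373 (4.02%). Position 15790 was converted in 11 of 906 reads (1.21%) and 12 of 385 (3.12%). Its most covered call, 15792, had 11 conversions in 909 reads of replicate 1 alone. Many reads at low converted shares made up the total of this gene.

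In the asparagine tRNA trnN(guu), with 7.31% and 4.55% of conversions, position 3078 in the D loop stood out. Replicate 1 had 31 conversions in 191 reads there (16.2%, 11.7 to 22.1) and replicate 2 had 15 in 117 (12.8%, 7.93 to 20.1), and the control did not list it. The T 3 nt before it, 3075, was converted in 10 of 131 reads and 3 of 77 and was also called in the control. In the glutamate tRNA trnE(uuc), with 5.08% and 4.33% of conversions, the shared positions 18437 (8 of 444 and 11 of 235) and 18448 (10 of 529 and 4 of 259) stayed below 5%.

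Other tRNAs had few reads and high shares. In the proline tRNA trnP(ugg), position 15708 had 20 conversions in 92 reads (21.7%, 14.5 to 31.2) and 5 in 40 (12.5%, 5.46 to 26.1). In the isoleucine tRNA trnI(gau), position 16706 had 28 conversions in 163 reads (17.2%, 12.2 to 23.7) and 14 in 80 (17.5%, 10.7 to 27.3). In the leucine tRNA trnL(uag), position 14643 had 10 conversions in 88 reads (11.4%, 6.29 to 19.7) and 5 in 26 (19.2%, 8.51 to 37.9). These 3 bases lie 10 to 13 nt after the first anticodon base, as does 14279 of trnD(guc), and none was listed in the control.

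The valine tRNA trnV(uac) differed in that its highest shared calls lay elsewhere. Position 17182 in the D loop was converted in 6 of 38 reads (15.8%) and 3 of 24 (12.5%), and 17199 at the first anticodon base in 8 of 53 (15.1%) and 5 of 36 (13.9%). The neighbouring D-loop call 17185 was converted in 3 of 55 and 3 of 33. Shared calls in further tRNAs were 2875 in trnK(uuu) (4 of 233 and 3 of 154), 3012 in trnS(gcu) (10 of 314 and 8 of 142) and 9966 in trnT(ugu) (5 of 61 and 4 of 34). In trnS(uga) they were the adjacent 17683 (6 of 173 and 3 of 80) and 17684 (4 of 176 and 5 of 82). In trnP(ugg) they were 15678 (4 of 66 and 4 of 39) and 15681, a position of the control as well.

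Placed on a common scale, the distance from the first base of the anticodon, the tRNA calls were unevenly placed. The D loop (20 to 13 nt before) held 24 of the 70 positions among 76 T bases of the 25 genes, the anticodon loop (2 nt before to 4 nt after) 14 among 69, and the variable loop (10 to 14 nt after) 15 among 53. The 3′ side of the anticodon stem, between the last pair, held 7 among 45. The region before the D loop held 1 among 117, that between the D loop and the anticodon loop 2 among 55, and the region after the variable loop 7 among 218. The bounds follow the usual tRNA fold and were set after the calls were seen. The genes trnS(uga), trnL(uaa) and trnS(gcu), of 82, 83 and 83 nt, have long variable arms and are placed by distance alone.

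The variable loop carried the most tRNA conversions in both crosslinked libraries, and 14279 of trnD(guc) alone gave 138 and 77 of them. The loop gave 267 of the 604 tRNA conversions in replicate 1 (44.2%) and 132 of 311 in replicate 2 (42.4%), at 5.54% and 8.97% of pooled reads. The D loop gave 20.9% and 20.3%, at 4.39% and 5.07% of reads. The anticodon loop gave 11.6% and 15.1%, at 1.68% and 2.42% of reads, although the reads summed over its called positions were 4169 and 1943. The 3′ side of the anticodon stem gave 15.9% and 14.1%, at 2.37% and 3.69% of reads.

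Without 14279, left out after the data were seen, the variable loop and the D loop changed places between the replicates. The variable loop then gave 129 of 466 tRNA conversions (27.7%) in replicate 1 and 55 of 234 (23.5%) in replicate 2, and the D loop 126 (27.04%) and 63 (26.9%). The pooled converted share of the variable loop was then 3.28%, below that of the D loop, in replicate 1, and 5.26%, above it, in replicate 2. The median over called positions was 3.47% and 11.8% in the variable loop, with 14279 included, and 4.92% and 5.13% in the D loop.

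**Figure D2:**
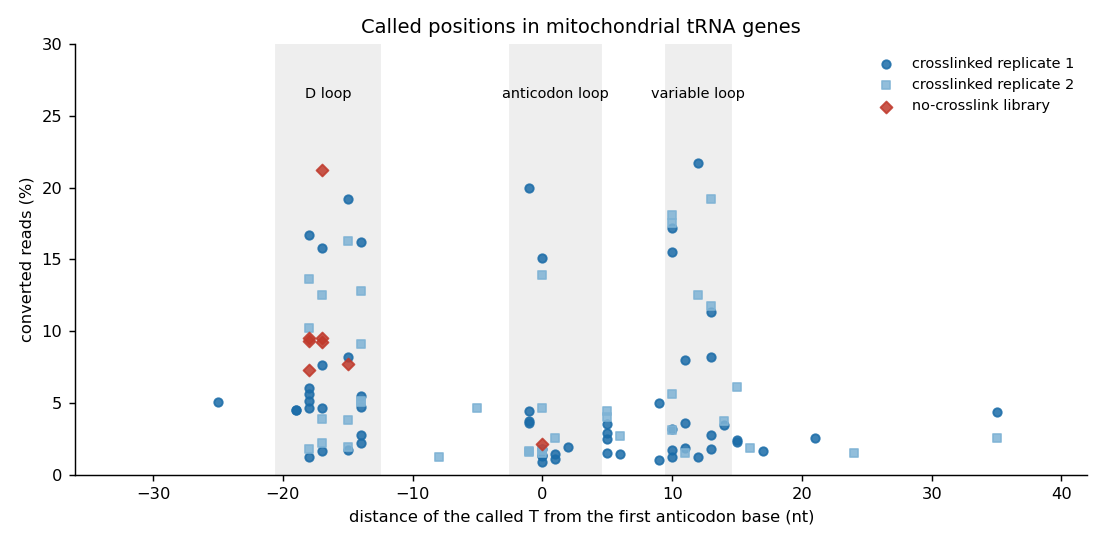
Converted reads (%) at each called T of the mitochondrial tRNA genes against its distance in nt from the first anticodon base, for the 2 crosslinked replicates and the library without crosslinking; grey bands mark the D, anticodon and variable loops. The control points lie in the D loop, 7 of 8, and the variable loop holds crosslinked points up to 21.7% and no control point.

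The control calls were all in tRNA genes, and 7 of the 8 lay in the D loop, at nucleotides 16 to 21 of the gene. The D loop gave 31 of the 34 control conversions (91.2%), against 20.9% and 20.3% of tRNA conversions in the crosslinked replicates. In the order of map position, trnN(guu) 3075 had 7 converted of 33 reads (21.2%, Wilson 95% interval 10.7 to 37.8) and trnG(ucc) 14330 had 10 of 108 (9.26%, 5.11 to 16.2). The adjacent 14507 and 14508 of trnW(cca), the tryptophan tRNA, had 2 of 21 each. Further control calls were 15681 of trnP(ugg) with 3 of 39, 18073 of trnA(ugc) with 3 of 41 and 18419 of trnE(uuc) with 4 of 43. The one outside the D loop, 15780 at the first anticodon base of trnQ(uug), had 3 of 139 (2.16%).

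All but 1 of these control positions were also called in a crosslinked library, and 4 of them, 3075, 14330, 15681 and 15780, in all 3 libraries. The exception, 14507, was called in the control alone. The two-sided Fisher exact test on converted and unconverted reads, with Benjamini-Hochberg adjustment over all positions of the genome called in both tables, compares these libraries and not the conditions. Between crosslinked replicate 1 and the control it called 1 of 6 mitochondrial positions, against 21.3% of the 47 positions tested (14.9% higher in the control, 6.38% higher in the crosslinked library). Between replicate 2 and the control it called 2 of 5, against 33.3% of 39 (23.1% and 10.3%).

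Both called positions had the higher share in the control. Only positions called in the control entered the test, and its mitochondrial calls had 21 to 139 reads. Low control shares at such depths may not be listed, so entry to the test can favour high control shares. The direction therefore supports nothing further, and the same limit applies to the control median of 9.28%. At 14330 the share was 8 of 482 reads (1.66%) in replicate 1 and 5 of 224 (2.23%) in replicate 2, against 9.26% in the control (Fisher exact test, adjusted p = 0.00268 and 0.0357). At 3075 it was 7.63% in replicate 1 and 3.90% in replicate 2, against 21.2% (Fisher exact test, adjusted p = 0.141 and 0.0357). With Bonferroni adjustment 14330 was still called against replicate 1, and neither position against replicate 2. At 15681 both replicates had a higher share than the control, 7 of 85 and 7 of 43, and at 15780 the shares of 7 of 758 and 5 of 331 were below that of the control; neither passed the test. Positions 18073 (3 of 22 in replicate 2), 14508 (2 of 43 in replicate 1) and 18419 (6 of 107 in replicate 1) did not pass it either.

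**Figure D3:**
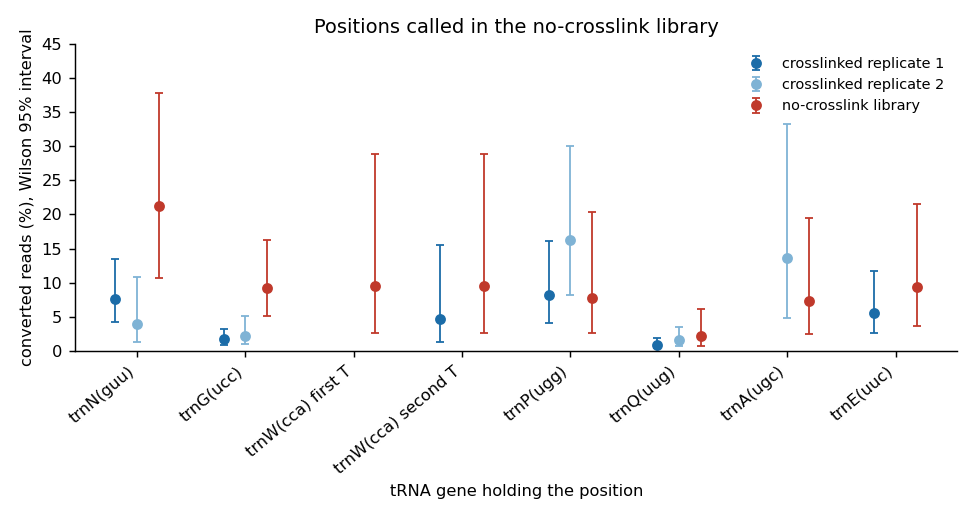
Converted reads (%) at the 8 positions called in the library without crosslinking, with Wilson 95% intervals, beside the crosslinked replicates where the position was called there. At the positions of trnN(guu) and trnG(ucc) the control, at 21.2% and 9.26%, is above both replicates.

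Nuclear tRNA genes held 219, 176 and 39 called positions in the crosslinked replicates and the control, with a median converted share of 3.64%, 4.32% and 4.26%. The mitochondrial tRNA medians were 3.59%, 4.22% and 9.28% over 60, 38 and 8 positions. Covering reads had medians of 185, 138 and 179 in nuclear tRNA genes and 173, 148 and 40 in mitochondrial ones. Calls of 1 converted read among 3 were also rare in nuclear tRNA genes, with 1 and 3 in the crosslinked replicates. The reads of genes with near-identical copies can be placed in more than 1 way, and how the authors treated such reads is not known here.

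The ribosomal RNAs held 30 positions, with 14.1% of mitochondrial conversions in crosslinked replicate 1, 16.7% in replicate 2 and none in the control. They contain 19.2% of the T bases on the plus strand, and held 17.2% and 20.7% of the called mitochondrial positions in the crosslinked replicates. The small-subunit RNA rns gave 69 and 50 conversions (8.55% and 10.8%). Its leading position, 3843 at nucleotide 713, had 33 conversions in 1066 reads (3.10%, 2.21 to 4.32) and 20 in 235 (8.51%, 5.58 to 12.8), and the intervals did not overlap. The other shared calls of rns were 3515 (12 of 328 and 9 of 105), 3450 (7 of 686 and 3 of 119) and 3144 (6 of 170 and 2 of 45). All 4 had the higher share in replicate 2, as did most shared positions, and the limit of that direction is given with the replicates below.

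The large-subunit RNA rnl, the longer of the pair at 2823 nt, had more called positions and no repeated one. It held 11 positions with 45 conversions in replicate 1 and 9 positions with 27 in replicate 2, and 0 were called in both, against 29 shared of 60 and 38 in tRNA genes. Over all mitochondrial positions 42.4% and 51.2% were shared, and over nuclear positions with at least 2 conversions 8.51% and 16.3%. With so few positions in rnl the lack of shared ones is a description, and it was not tested. Its highest conversion count was 9 of 745 reads at 1250 in replicate 1, and 5 of 463 at 1490 in replicate 2, where 1503 had 4 of 422. Pooled over called positions its converted share was 1.42% and 1.85%, against 2.32% and 4.91% in rns.

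Coding sequence held 12 positions and the intron of cob, the gene of cytochrome b, held 8. Coding positions carried 2.35% and 3.25% of mitochondrial conversions, although coding sequence holds 35.3% of the T bases. Intron positions carried 2.23% and 3.25%, while the introns of cob and cox1 hold 23.1% of the T bases. The one shared coding call was 6527 in cox1, a core subunit of cytochrome c oxidase, with 3 of 184 reads and 2 of 57. In the cob intron 11092 was shared, with 14 of 300 reads (4.67%) and 3 of 121 (2.48%), and the remaining intron calls had 2 to 4 conversions. No call fell in the introns of cox1, in rps3, which encodes a ribosomal protein, or in the coding sequence of cox2. The RNase P RNA rnpB had 1 call in each crosslinked library, 18133 with 4 of 74 and 18155 with 2 of 25, at different nucleotides.

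Outside annotated genes lay 18 positions, 12.1% and 15.9% of the mitochondrial positions in the crosslinked replicates, where 11.9% of the T bases lie. Of the 18, 7 stood 2 to 17 nt after the stop codons of 5 mRNAs, the sequences of which are printed above. How many T bases lie at such distances was not counted, so the 7 have no background and are a description. After atp6, position 15535 was converted in 6 of 273 reads (2.20%) and 3 of 82 (3.66%). After atp9, position 18032 was converted in 5 of 520 reads (0.962%) and 3 of 208 (1.44%), and the next T, 18033, in 7 of 205 (3.41%) in replicate 2 alone. After cob, replicate 1 called 13868 with 5 of 327 and replicate 2 the adjacent 13867 with 7 of 106. Position 9785 after cox3 (5 of 255) and 19310 after cox2 (6 of 629) were called in replicate 1 alone.

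Each of these mRNAs has a run of C right behind the called bases. The letters TCCCCC were chosen from these called bases, so the counts that follow describe them and support nothing further. Searched on the plus strand of the mitochondrial sequence, they occur 7 times, and their T was called at 6: after cox3, cob, atp6, atp9 and cox2, and in rnpB at 18133. The occurrence without a call lies 6 nt after rps3. A T directly before such a run made up 5 of the 99 positions of replicate 1, 2 of the 82 of replicate 2 and 0 of the 8 of the control. Among nuclear calls it made up 3 of 6560, 2 of 4742 and 0 of 127. Such bases are 0.0996% of the 7028 T bases on the mitochondrial plus strand and 0.0202% of nuclear T bases on both strands. The effect of the C run on alignment or base calling was not tested.

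**Figure D4:**
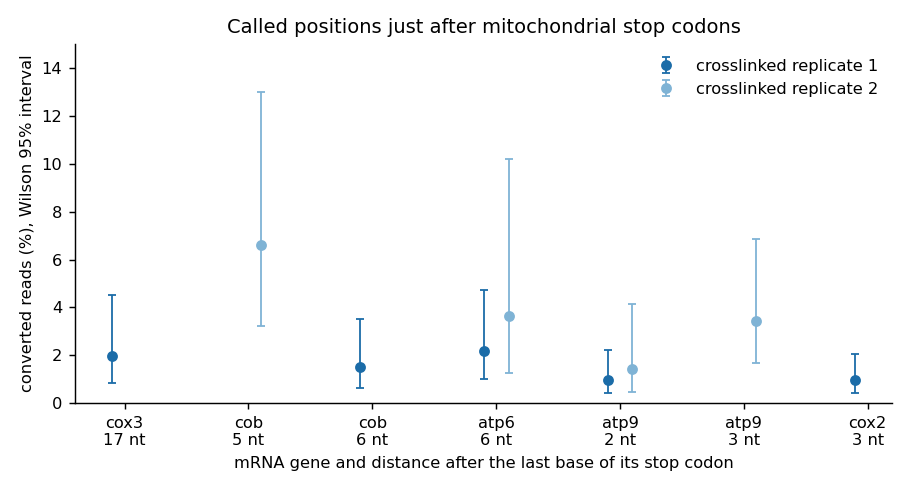
Converted reads (%) with Wilson 95% intervals at the 7 called positions just after mitochondrial stop codons, in the 2 crosslinked replicates, labelled by gene and distance in nt after the stop codon. Shares run from 0.954% after cox2 to 6.60% after cob, and the position after atp6 and the first after atp9 carry a value in both replicates.

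A second group outside annotated genes lay between trnS(uga) and atp9, where 6 positions fell within 17 nt. Position 17747 was converted in 4 of 67 reads (5.97%) and 8 of 41 (19.5%), and 17759 in 5 of 63 and 2 of 39. Positions 17744 (4 of 61 and 3 of 43) and 17745 (2 of 62 and 2 of 41) were shared as well, while 17743 and 17753 had 2 conversions each in replicate 1. The last shared intergenic call, 17363 behind trnY(gua), rested on 2 of 14 and 2 of 12 reads. None of these was called in the control.

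Along the molecule the calls filled 30 of 39 bins of 500 nt. The bin 14001 to 14500, with trnD(guc), trnG(ucc) and trnL(uaa), carried 33.1% and 33.98% of mitochondrial conversions, a mean of 33.5% ± 0.634 (SD, n = 2). Next came 15501 to 16000, with trnP(ugg) and trnQ(uug), at 13.8% and 13.0%, and 3001 to 3500, with trnN(guu), at 11.5% and 9.31%. The bins 18001 to 18500 (6.94% and 7.58%) and 3501 to 4000 (5.58% and 6.93%) followed. These 5 bins held 70.9% and 70.8% of conversions, and 88.2% in the control. Stretches without a call were 5001 to 6500, 7001 to 8000, 8501 to 9000, 12501 to 13000, 16001 to 16500 and 18501 to 19000.

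The 2 crosslinked libraries called 42 mitochondrial positions in common, 42.4% of those in replicate 1 and 51.2% of those in replicate 2. Nuclear positions were shared at 4.21% and 5.82%, or at 8.51% and 16.3% among those with at least 2 conversions. The latter had fewer covering reads, with medians of 53 and 48 against 173 and 96 for mitochondrial positions under that filter. Sharing was not counted for nuclear tRNA genes, and the effect of read depth on sharing was not tested. The higher sharing is thus not shown to be particular to the mitochondrial molecule. The shared mitochondrial positions, 29 in tRNA genes, 4 in rns, 7 outside genes and 1 each in cox1 and the cob intron, carried 71.0% and 73.6% of the conversions. Positions in 1 library alone had at most 11 conversions in replicate 1 and 7 in replicate 2.

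At the shared positions replicate 1 had more reads in 42 of 42 and replicate 2 the higher converted share in 33 of 42. Low shares at the fewer reads of replicate 2 may not be listed, so entry to the shared set can favour high shares there. The pooled share of nuclear calls was also higher in replicate 2, at 4.07% against 3.16%. The direction is therefore no result about mitochondrial positions. Across these positions Spearman's rho was 0.840 for the converted share and 0.956 for the reads, given as a description because the positions share libraries and several share a gene. Between the replicates the Fisher exact test with Benjamini-Hochberg adjustment over 318 positions called 0, or 0% of all tested and 0 of the 42. At an unadjusted p under 0.05 there were 3: 3843 in rns (Fisher exact p = 7.07e-04, adjusted p = 0.0851), 15790 in trnQ(uug) and 18437 in trnE(uuc), each with the higher share in replicate 2, and Bonferroni adjustment also called 0.

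**Figure D5:**
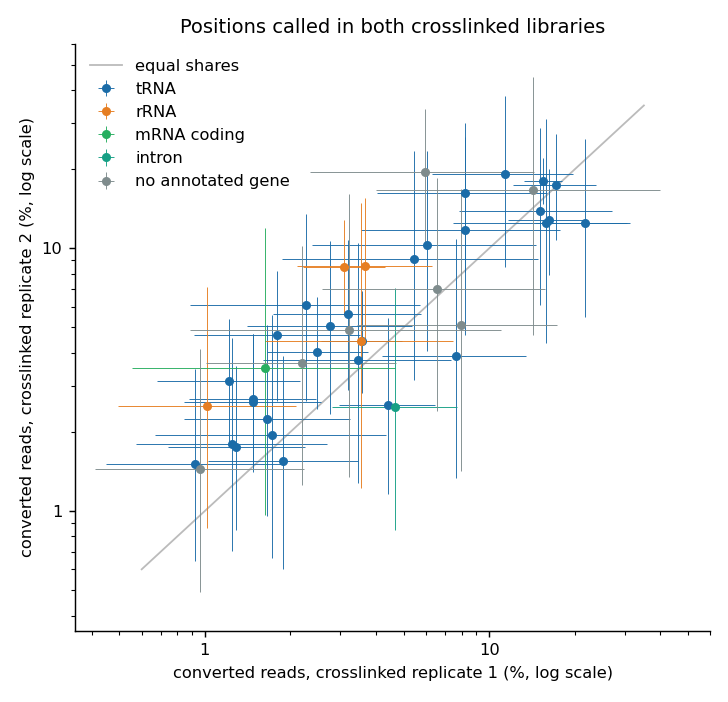
Converted reads (%) at the 42 mitochondrial positions called in both crosslinked libraries, replicate 1 against replicate 2 on log axes, with Wilson 95% intervals and the line of equal shares; colours mark the gene class. Most points, 33 of 42, lie above the line.

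Dividing the conversions by the deposited occupancy gives a whole number that depends on the position and not on the library, read here as the depth of a reference library that the sources used here do not name. For mitochondrial calls this reference depth was high, with a median of 3092 in crosslinked replicate 1 and 3904 in replicate 2, against 149 and 162 for nuclear calls. Within the molecule its median was 320 and 1720 in rRNA, 3248 and 3833.5 in tRNA genes, 51586 and 46164 in coding sequence and 33340.5 and 53740 in the cob intron, with a maximum of 93852 in cox3. Nuclear tRNA genes had a median of 2 and 4. What the reference library contains was not tested.

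Most proteins of the mitochondrion are encoded in the nucleus, and their mRNAs were examined from a list of respiratory chain, ATP synthase and mitochondrial gene expression genes. Of 62 matched members 19 had a sense call in both crosslinked libraries (30.6%), against 29.9% of 5113 protein-coding genes. In the respiratory chain and ATP synthase these were 10 of 36, and in mitochondrial gene expression 9 of 26. The share lay close to the background and is no result about the list. Calls with at least 2 conversions left 6 members, where the background was 8.06%.

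The members with most conversions were atp1, the ATP synthase alpha subunit, with 7 conversions in replicate 1 and 10 in replicate 2, sdh1 of succinate dehydrogenase (13 and 4) and cyc1, cytochrome c (11 and 5). Next came tuf1, the mitochondrial elongation factor (9 and 2), ppr5, an RNA-binding PPR protein (4 and 5), and cyt1, cytochrome c1 (6 and 2). With the same total as cyt1, 8, stood nde1, an NADH dehydrogenase (4 and 4), and qcr1, of the mitochondrial processing peptidase (8 and 0). Of the whole list nde1 alone had a call in the control, with 2 of 7 reads. Single mitochondrial tRNA genes such as trnD(guc), with 158 and 102 conversions, exceeded each of them.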

How the data were processed

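PAR-CLIP tables of 2 crosslinked libraries and 1 control were used. The authors' deposited counts are the converted and the covering reads of each called position, an interpretation that rests on the values, because the file headers give single letters. The authors' deposited p-value of a call reached at most 0.00499, and the deposited ratio is the occupancy. Reads were aligned with Bowtie 1.1.1 to ASM294v2, with SAMtools also named, per the submitters' processing notes. No source used here names the caller or its thresholds. The lowest number of reads at a listed position was 3.

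Converted shares, Wilson 95% intervals and two-sided Fisher exact tests (threshold 0.05, Benjamini-Hochberg over all positions in both tables) were computed with SciPy 1.17.1 in Python 3.11.15 and tested on simulated data. Reads carry no molecular identifiers. Named were positions shared by the crosslinked libraries or called in the control, those with most conversions or reads, the 5 leading bins and the 6 leading list members. The members and lists were chosen with earlier results of these data known. Gene names were to be used only if every position was a T in the supplied sequence. Read directly, this condition failed. With the shifts described above it holds by construction, and names were used, a change made after the data were seen. The symbol par1 was left out because the annotation gives it to another protein, and sdh4, oxa1 and cox15 found no match. Alternatives filtered calls by conversions, reads or p, changed bins, adjustment or matching distance, and left out each replicate.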

Additional observations from a re-analysis of the deposited data

How the results depend on the processing

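The mitochondrial share of called positions rose from 1.59% to 3.77% with at least 2 conversions, 4.48% with at least 20 reads and 5.08% with an authors' p under 0.001. The share of conversions rose from 4.16% to 5.38%, 5.80% and 6.61% under the same filters, and the share of reads from 4.23% to 5.66% under the last. These filters remove the calls of 1 read in 3, which were nearly all nuclear. The leading bin held 35.2% with 1000 nt bins or a start moved by 250 nt. Against crosslinked replicate 2, Bonferroni adjustment left 0 of 2 control differences. The nuclear list had 6 members with at least 2 conversions and 34 in replicate 1 alone (background 52.4%). The tRNA share of conversions was 81.9% at shared positions and 65.2% without 14279, and the variable loop's share of tRNA conversions 25.6% without 14279 against 43.3%, alternatives added after the data were seen.

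Leaving out 1 crosslinked replicate gave 1.49 to 1.70% of positions, 4.15 to 4.17% of conversions, 4.03 to 4.43% of reads, a median converted share of 2.78 to 4.49%, 33.1 to 33.98% in the leading bin, 67.3 to 74.8% in tRNA genes and 100% on the plus strand. Of all alternatives, 35 of 50 stayed within the spread of the replicates or within 1.5 times the count. Many of these could not do otherwise. Leaving out 1 replicate returns the value of the other, which lies within their spread by construction. Every call was on the plus strand, so no filter could change that share. Bonferroni adjustment cannot add calls where Benjamini-Hochberg adjustment made none. The count of 35 is therefore no measure of robustness. No paired analysis was possible because the control carries no replicate number. In the control 8 positions with 445 reads limit the precision of each value.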

Other observations

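Within tRNA genes, called T bases at the same distance from the anticodon recurred in different genes. At 10 nt after the first anticodon base a call was made in 5 genes, at the first anticodon base in 5, and at 14 nt before it in 6. At 18 and 17 nt before it there were 8 and 4 calls, of which 3 and 3 were in the control. At 10 nt the crosslinked shares ran from 1.21% in trnQ(uug) to 17.2% in trnI(gau) in replicate 1. How many of the 25 tRNA genes carry a T at each distance was not counted, so these counts have no background. The recurrence is thus no result about the distances. The counts are descriptions, and no test was made of them.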
